A study of Mus musculus with 15 samples.

Results

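The core circadian clock loop was followed in mouse liver through 10 genes taken by name, Arntl, Clock, Npas2, Per1, Per2, Per3, Cry1, Cry2, Nr1d1 and Nr1d2, out of 35540 gene symbols with counts. All 10 were found, and 9 passed the filter on low counts and were tested. Npas2, at 1 to 15 estimated counts a library, did not pass. Bulk RNA had been sequenced as 15 libraries in 3 groups of 5, all after 8 weeks on a high-fat diet. By their labels the groups were Txnip knockout (KO), a knock-in of the C247S change in TXNIP (C247S KI) and wild type (WT). TXNIP is the thioredoxin-interacting protein, and C247S replaces the cysteine through which it bonds to thioredoxin. The labels state neither strain, age, sex nor the way the alleles were made. The labels also do not state the hour of collection, on which every level below depends. Numbers in the sample titles place the KO libraries in a series apart from C247S KI and WT, whose numbers lie in 1 shared range. What these numbers stand for is not stated. Any difference in cohort or collection that goes with them cannot be told apart from the KO genotype.

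The clock is a feedback loop of transcription. BMAL1 (the product of Arntl) pairs with CLOCK or NPAS2 and switches on genes that carry E-box motifs, among them the Per, Cry and Nr1d genes. PER and CRY proteins then inhibit that pair, and the REV-ERB receptors (Nr1d1 and Nr1d2) repress Arntl, Clock, Npas2 and Cry1 through ROR elements. In mouse liver Arntl, Npas2 and Clock transcripts are known to peak around the change from night to day, and Cry1 late in the night. Nr1d1 is known to peak in the middle of the day, Nr1d2 and Per3 somewhat after it, and Per1 and Per2 around dusk, whereas Cry2 swings little.

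The bases before RefSeq start sites of 4 members are shown, each of which carries a difference described below or holds matches to clock motifs. They are a selection. Clock, which also differed, Per1 and Cry2, which also hold matches, and a further Arntl window are not shown. Each run is 250 bases in GRCm38.p6, read 5′ to 3′ on the strand of the gene and ending just before the start. Capitals mark the E-box CACGTG, a variant of it that reads CACGTT on one strand and thus AACGTG on the other, and the D-box (TTATGTAA, TTACATAA or TTACGTAA), searched on both strands.
Nr1d1 (chr11:98775378-98775627, minus strand): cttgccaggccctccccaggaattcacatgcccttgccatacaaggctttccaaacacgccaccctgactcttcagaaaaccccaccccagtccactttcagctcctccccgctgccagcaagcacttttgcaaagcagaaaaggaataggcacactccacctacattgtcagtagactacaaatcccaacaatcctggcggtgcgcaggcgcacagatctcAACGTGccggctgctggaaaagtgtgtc
Cry1 (chr10:85185055-85185304, minus strand): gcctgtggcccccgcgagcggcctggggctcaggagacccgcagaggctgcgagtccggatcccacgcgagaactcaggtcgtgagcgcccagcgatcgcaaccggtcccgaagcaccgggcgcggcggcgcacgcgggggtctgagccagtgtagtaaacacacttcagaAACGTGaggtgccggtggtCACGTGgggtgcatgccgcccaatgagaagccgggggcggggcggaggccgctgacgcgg
Per3 (chr4:151044666-151044915, minus strand): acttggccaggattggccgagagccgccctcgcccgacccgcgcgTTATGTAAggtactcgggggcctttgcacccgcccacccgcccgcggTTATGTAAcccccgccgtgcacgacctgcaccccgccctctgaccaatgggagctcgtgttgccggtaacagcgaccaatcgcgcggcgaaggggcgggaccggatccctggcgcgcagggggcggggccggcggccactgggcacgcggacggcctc
Arntl (chr7:113207215-113207464, plus strand): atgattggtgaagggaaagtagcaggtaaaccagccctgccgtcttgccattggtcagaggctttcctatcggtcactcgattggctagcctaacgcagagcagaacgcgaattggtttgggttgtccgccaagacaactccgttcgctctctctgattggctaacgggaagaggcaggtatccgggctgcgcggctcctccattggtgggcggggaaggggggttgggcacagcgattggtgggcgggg

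Nr1d1 held the variant E-box at bases -28 to -23 from its start, and Cry1 held the variant at -79 to -74 and the E-box itself at -60 to -55. Per3 held the D-box at -205 to -198 and again at -158 to -151. RefSeq windows were matched for 9 of the 10 members, as 13 windows in all. The E-box was in windows of 2 members, Cry1 and Per1, and in 6.02% of all 32851 windows. Its variant was in windows of 3 members, Cry1, Cry2 and Nr1d1, and in 3.85% of all windows. The D-box was found in 1 member window and in 0.931% of all windows. A shortened ROR element, NTAGGTCA, was in 0 of the 13 member windows and in 2.22% of all, which says only that these letters are not in these stretches.

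The libraries held 18047577 to 23379940 estimated counts, with TMM scaling factors of 0.861 to 1.25. Txnip averaged 99.0 ± 24.9 CPM (counts scaled to a common library size) in KO, 192 ± 65.7 in C247S KI and 222 ± 56.2 in WT (SD, n = 5 each), with a fall of 1.17 (log2) between KO and WT (SE 0.24, edgeR adjusted p = 0.00887). The libraries labelled KO thus kept Txnip RNA, at 1406 to 2671 counts each and 44.5% of the WT level, and the label is borne out only in part at the RNA level. Their 70.9 to 123.5 CPM lay below all WT libraries (180.4 to 319.9 CPM) and overlapped the C247S KI libraries through C247S KI 3, at 99.9 CPM. Both main coding transcripts were present, Txnip-202 with 53.9% of Txnip counts in KO and 51.8% in WT, and Txnip-201 with 44.2% in KO and 45.4% in WT. Which bases the allele removes is not in the labels, so these counts do not show whether protein is made. Txnip also shares 606 exonic bases with Gm15441 on the opposite strand, and no source used here says that reads were assigned by strand. How far that overlap bears on the Txnip counts in KO was not tested. Principal component 1 (23.6% of the variance) placed the 5 KO libraries at -44.7 to -18.6 and the 10 others at -0.033 to 42.1. On component 2 (15.6%), KO 5 lay at -38.7, C247S KI 5 at -35.6 and WT 1 at 43.9. Hepatocyte markers (9 of 10 in the table) summed to 70730 to 93780 CPM in KO, 79510 to 132300 in C247S KI and 96480 to 118600 in WT. Of the 9, Alb, the albumin gene and the most abundant, fell to 38230 CPM in KO, against 66620 CPM in C247S KI (edgeR adjusted p = 0.0218) and 66440 CPM in WT (0.0294). Cyp2e1 rose in KO against C247S KI (adjusted p = 0.0141), and 5 of the 9 had a positive log2 difference in KO against WT, with a median of 0.034. In bulk tissue, fewer cells of a type and less RNA per cell cannot be told apart.

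Per unit of transcript length, the loop ran over a wide range of levels. In TPM (a level per annotated transcript length, scaled to a common total), WT livers averaged 26.4 ± 13.7 for Nr1d1, 24.6 ± 8.56 for Nr1d2, 18.4 ± 4.26 for Cry2 and 18.3 ± 5.72 for Per1 (SD, n = 5). The WT ranges of these 4 overlapped. Lower TPM levels in WT were 6.62 ± 2.55 for Per2, 5.11 ± 0.60 for Cry1, 4.71 ± 2.09 for Per3 and 4.07 ± 0.43 for Clock, again with overlapping ranges. Arntl stood below all of them at 1.597 ± 0.764 TPM in WT and Npas2 lowest at 0.164 ± 0.098 TPM. The KO livers had Nr1d1 at 40.1 ± 20.4 TPM and Arntl at 0.7101 ± 0.0833 TPM, the widest gap between these genes in the 3 groups. All values that follow are CPM scaled by the TMM factors, which compare a gene between libraries but not with another gene.

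KO livers differed from C247S KI livers in 4 of the 9 tested members: Arntl, Clock and Cry1 fell and Nr1d1 rose. This comparison called 10.3% of all 13916 tested genes at an edgeR adjusted p below 0.05, 4.41% higher and 5.85% lower, and in 9.67% the libraries did not overlap (4.73% higher, 4.94% lower). Arntl fell to 32.7% of its C247S KI level and Cry1 to 49.5%, while Nr1d1 rose 2.28-fold. The other 5 tested members, all 3 Per genes, Cry2 and Nr1d2, did not pass. The median log2 change of the 9 was 0.026, beside -0.029 over all tested genes, since members moved in both directions.

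Arntl (chr7:113207465-113314126, plus strand, GRCm38) encodes the shared partner in the activating pair. Its levels in KO livers were 1.46, 1.57, 1.10, 1.30 and 1.37 CPM. The C247S KI livers had 3.35, 3.23, 3.31, 7.14 and 3.89 CPM, and the WT livers 1.35, 1.84, 2.83, 3.46 and 4.05 CPM. Every KO library lay below every C247S KI library, the 1 member of the 9 without overlap. In KO against C247S KI, Arntl fell by 1.61 on the log2 scale (SE 0.30, edgeR adjusted p = 0.00275). It passed in each of the 26 other fits tried, with log2 values of -1.74 to -1.33. The KO libraries held just 24 to 34 Arntl counts each, so counting error may make up much or all of their spread. Their narrow range thus does not show how alike these livers were.

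Clock (chr5:76209868-76304792, minus strand) encodes the DNA-binding histone acetyltransferase that pairs with BMAL1. It had 21.97, 14.8, 20.5, 16.6 and 17.3 CPM in KO, against 21.4, 25.5, 23.7, 31.6 and 27.5 CPM in C247S KI. The groups overlapped through the highest KO and the lowest C247S KI library. In KO against C247S KI, Clock fell by 0.51 on the log2 scale (SE 0.12, edgeR adjusted p = 0.0161). That call was lost without KO 2 (adjusted p = 0.0600), without KO 4 (0.0588), without C247S KI 4 (0.0507) and with total counts in place of TMM factors (0.0522), an alternative added after seeing the data. Npas2, which can stand in for CLOCK, averaged 0.272 ± 0.116 CPM in KO, 0.379 ± 0.178 in C247S KI and 0.438 ± 0.266 in WT (SD, n = 5 each). Its counts of 2 to 9 in KO, 4 to 10 in C247S KI and 1 to 15 in WT libraries do not allow a comparison at this depth.

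A pair of annotated Clock transcripts carried most of its counts. Clock-205 had 397, 314, 396, 299 and 308 estimated counts in KO, 376, 344, 347, 462 and 437 in C247S KI, and 197, 417, 392, 295 and 371 in WT. The shorter Clock-201 had 14, 0, 23, 17 and 20 in KO, 101, 173, 53, 91 and 199 in C247S KI, and 229, 100, 20, 101 and 72 in WT. All KO libraries lay below all C247S KI libraries for Clock-201, and WT 3, at 20, was the 1 WT library inside the KO range. Clock-201 thus made up 3.90% of Clock counts in KO (0 to 5.87%), 22.5% in C247S KI (12.8 to 32.6%) and 22.8% in WT (4.80 to 50%). These shares were singled out after their values were seen and were not tested. The transcript counts are not scaled for library size, and no share of separating transcripts over all transcripts was set beside them. The division of reads between overlapping transcripts is an estimate made by the authors' quantification. It also varied widely within groups for Per1, where Per1-203 held 0 to 51.5% of counts in WT and Per1-206 0 to 53.8% in KO.

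**Figure D1:**
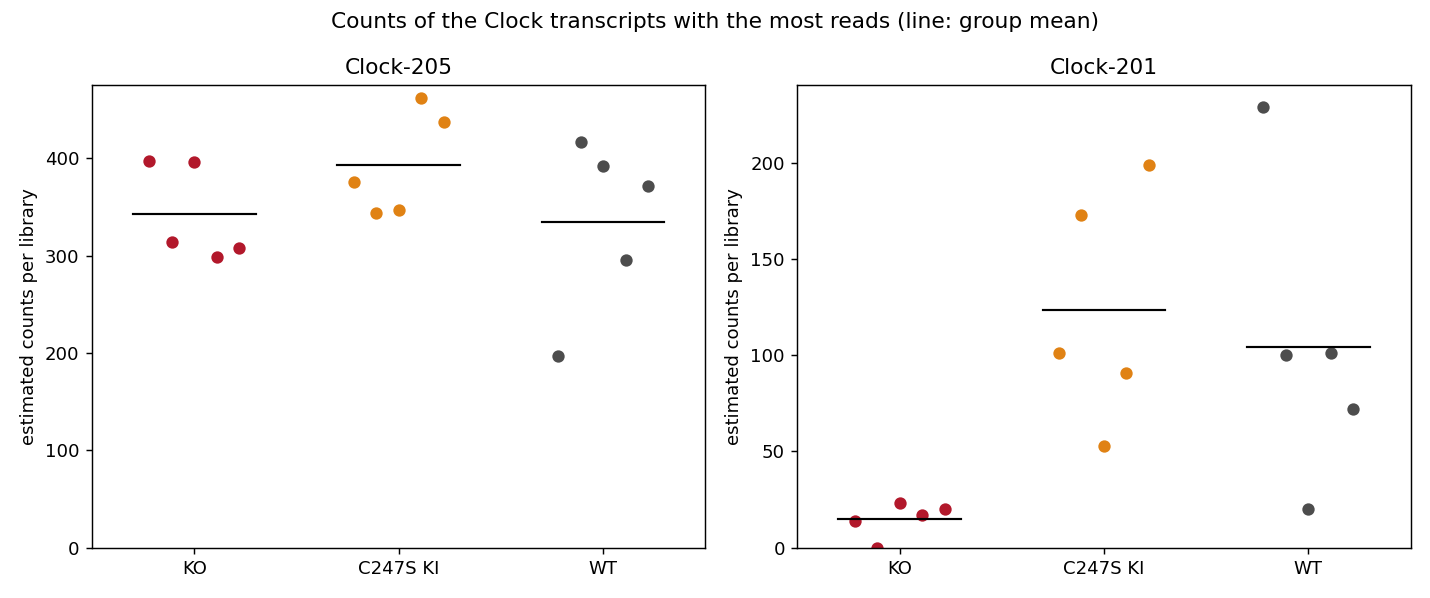
Estimated counts per library (vertical axes) of the Clock transcripts Clock-205 and Clock-201 in KO, C247S KI and WT livers, with points for libraries and lines for group means. Clock-201 reached 23 counts at most in KO livers and 53 at least in C247S KI livers.

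Cry1 (chr10:85131700-85185064, minus strand) encodes the cryptochrome that represses the activating pair late in the cycle. It had 7.81, 6.29, 5.64, 7.57 and 6.05 CPM in KO livers. The C247S KI livers had 14.7, 11.5, 5.82, 23.7 and 11.8 CPM, and the WT livers 9.63, 7.71, 11.7, 10.2 and 9.21 CPM. C247S KI 3 was the 1 library of its group within the KO range. In KO against C247S KI, Cry1 fell by 1.02 on the log2 scale (SE 0.25, edgeR adjusted p = 0.0183). It passed in each of the 26 other fits, at -1.32 to -0.71, with an adjusted p of up to 0.0494 (without KO 2). Cry2, its paralogue, averaged 45.5 ± 3.96 CPM in KO, 43.1 ± 5.66 in C247S KI and 43.0 ± 9.22 in WT (SD, n = 5 each). The log2 difference of Cry2 in KO against C247S KI was 0.079, with a 95% interval of -0.21 to 0.37 (edgeR adjusted p = 0.744).

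Nr1d1 (chr11:98767932-98775333, minus strand) encodes REV-ERB alpha, the heme-binding repressor of Arntl. Its levels were 34.3, 140.1, 78.4, 46.4 and 73.8 CPM in KO livers. In C247S KI livers they were 25.9, 46.8, 39.2, 21.6 and 30.2 CPM, and in WT livers 38.0, 64.6, 22.01, 31.4 and 60.1 CPM. KO 2, KO 3 and KO 5 stood above every other library, while KO 1 and KO 4 lay among the C247S KI values. In KO against C247S KI, Nr1d1 rose by 1.19 on the log2 scale (SE 0.35, edgeR adjusted p = 0.0380). The call depended on single libraries: it was lost without KO 2 (0.84, adjusted p = 0.133), and without KO 3, KO 5, C247S KI 1, C247S KI 4 or C247S KI 5 (adjusted p = 0.0624 to 0.0889). It was also lost with limma-voom (adjusted p = 0.0604), with total counts (0.0572) and when the 3 libraries WT 1, C247S KI 3 and C247S KI 5 were left out together (0.0906).

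Nr1d1 shares 263 exonic bases with Thra, the thyroid hormone receptor gene on the opposite strand, and no source used here says that reads were assigned by strand. Thra held 225 to 315 counts in KO and 137 to 230 in C247S KI libraries, beside 680 to 3030 Nr1d1 counts in KO and 385 to 971 in C247S KI libraries. In the same comparison Thra rose by 0.46 on the log2 scale (SE 0.11, edgeR adjusted p = 0.0134). How far the overlap bears on either gene was not tested.

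Nr1d2 (chr14:18204054-18239127, minus strand), which encodes REV-ERB beta, did not pass in any comparison with edgeR. It had 73.3, 61.6, 61.1, 53.6 and 59.2 CPM in KO livers, against 67.1, 63.3, 60.4, 45.5 and 67.0 CPM in C247S KI livers. WT livers had 119.1, 63.3, 45.7, 58.2 and 55.7 CPM, with WT 1 far above the rest. The log2 difference in KO against C247S KI was 0.026 with a 95% interval of -0.40 to 0.45 (edgeR adjusted p = 0.950). The 95% interval of Nr1d1 in the same comparison was 0.46 to 1.92, and the difference between the paralogues was not tested. Within a library, log2 Nr1d1 over Nr1d2 was -1.10 to 1.19 in KO, -1.37 to -0.44 in C247S KI and -1.65 to 0.11 in WT, so the groups overlapped.

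**Figure D2:**
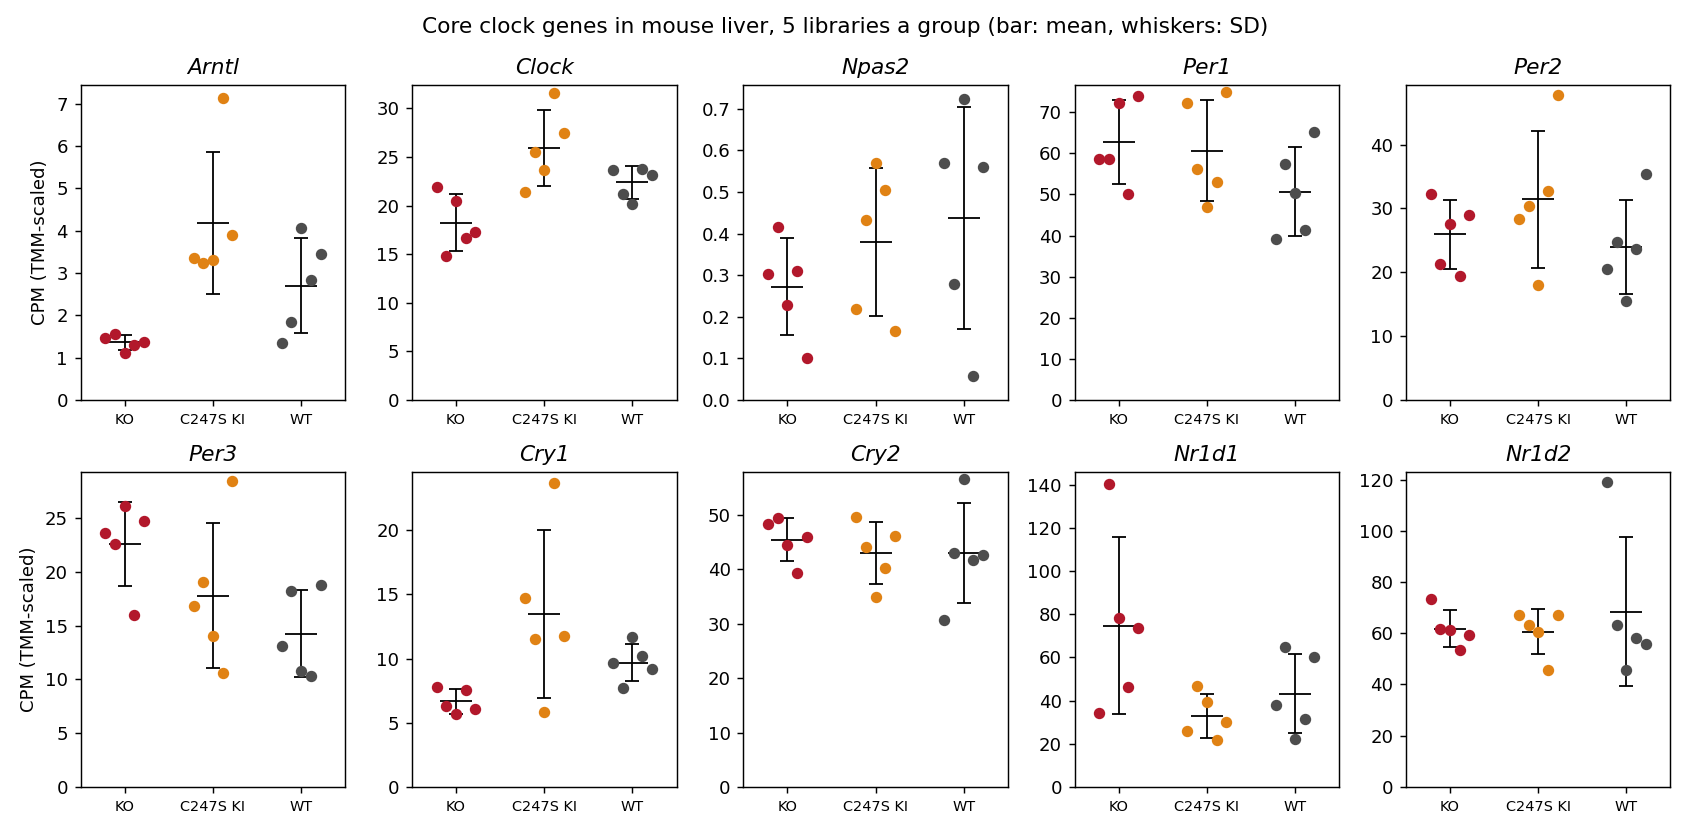
CPM of the 10 clock genes (vertical axes from 0) in 5 libraries each of KO, C247S KI and WT, with the mean as a horizontal line and the SD as whiskers. Arntl in KO livers stays between 1.10 and 1.57 CPM, below all C247S KI libraries, while Cry2 averages 45.5, 43.1 and 43.0 CPM in the 3 groups.

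The Per genes encode the partners through which CRY proteins are brought to the activating pair, and they are also induced acutely by hormones and temperature. Per1 averaged 62.7 ± 10.2 CPM in KO and 60.6 ± 12.3 in C247S KI (SD, n = 5 each), a log2 difference of 0.048 with a 95% interval of -0.30 to 0.39 (edgeR adjusted p = 0.880). Per2 averaged 25.9 ± 5.39 CPM in KO and 31.4 ± 10.7 in C247S KI, with a log2 difference of -0.28 and an interval of -0.77 to 0.21 (edgeR adjusted p = 0.460). Per3 averaged 22.6 ± 3.91 CPM in KO and 17.8 ± 6.74 in C247S KI, with a log2 difference of 0.34 and an interval of -0.14 to 0.83 (edgeR adjusted p = 0.353). For each of the 3, the KO and C247S KI libraries overlapped.

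In KO against WT, none of the 9 tested members passed the edgeR threshold, where 6.75% of all tested genes did (2.56% higher, 4.19% lower). At an unadjusted p below 0.05 the count was 5 of 9, namely Arntl, Clock, Cry1, Per3 and Nr1d1, beside 23.3% of all tested genes. DESeq2 called 2, Arntl and Per3, and limma-voom 0. For 0 of the 9 did the KO and WT libraries separate fully, which was so for 9.6% of all tested genes (4.51% higher, 5.09% lower).

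The signs in KO against WT were those of KO against C247S KI for the 4 genes called there, though the WT libraries are other libraries and the KO ones the same. Arntl had a log2 difference of -0.99 (SE 0.30, edgeR adjusted p = 0.0568), and WT 1, at 1.35 CPM, was the 1 WT library within the KO range. Without WT 1 it fell by 1.15 (adjusted p = 0.0230). Nr1d1 stood at 0.79 (SE 0.34, adjusted p = 0.176), Cry1 at -0.54 (SE 0.25, adjusted p = 0.213) and Clock at -0.29 (SE 0.12, adjusted p = 0.157). Per3 had 23.6, 22.6, 26.1, 16.01 and 24.7 CPM in KO livers, against 13.1, 18.2, 10.8, 10.3 and 18.8 CPM in WT livers. KO 4 was the single KO library among the WT values. Its log2 difference was 0.66 (SE 0.23, edgeR adjusted p = 0.0916), and 0.70 (adjusted p = 0.0150) with the replicate number as a block. Of Per3 counts, 37.8% in KO (27.4 to 43.6%) and 27.0% in WT (0 to 53.6%) were assigned to a transcript without a coding frame, Per3-204.

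For the remaining members the 95% intervals of the KO against WT log2 difference all included 0. They were -0.040 to 0.65 for Per1, -0.38 to 0.61 for Per2, -0.21 to 0.37 for Cry2 and -0.57 to 0.28 for Nr1d2. The Nr1d2 difference turned from -0.15 to 0.16 without WT 1.

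Between C247S KI and WT, which shares its WT libraries with the previous comparison, 0 of the 9 members passed, and 0.0862% of all tested genes did (0.0647% higher, 0.0216% lower). At an unadjusted p below 0.05 only Arntl did, beside 9.85% of all genes, and DESeq2 and limma-voom each called 0 members. Arntl averaged 4.18 ± 1.67 CPM in C247S KI and 2.71 ± 1.12 in WT (SD, n = 5 each), a log2 difference of 0.63 (SE 0.28, edgeR adjusted p = 0.497) that was 0.35 without C247S KI 4. Cry1 averaged 13.5 ± 6.53 CPM in C247S KI and 9.69 ± 1.45 in WT, a difference of 0.48 (SE 0.25, adjusted p = 0.550), or 0.18 without C247S KI 4. For Clock the difference was 0.21 and for Nr1d1 -0.40, with adjusted p of 0.581 and 0.713. The libraries of these groups overlapped for all 9 members, and did not for 1.32% of all tested genes (0.726% higher, 0.589% lower).

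**Figure D3:**
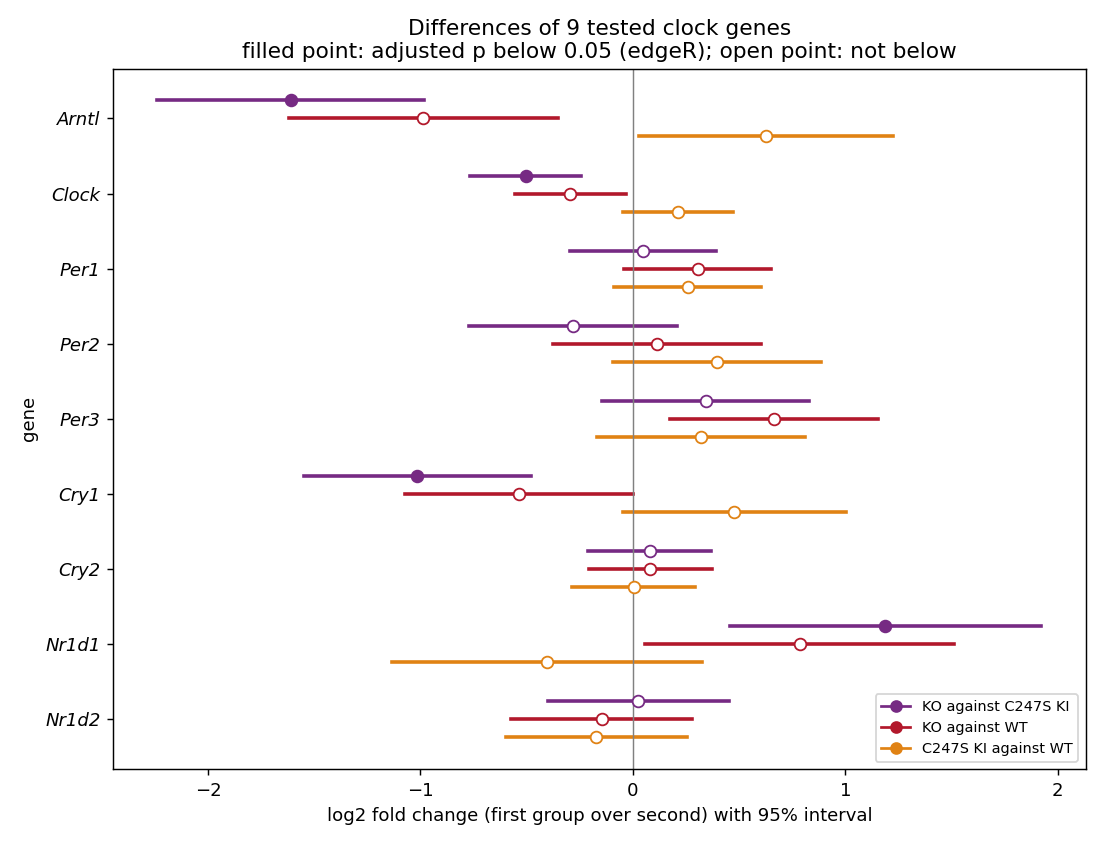
Log2 fold changes (horizontal axis, first group over second) of 9 clock genes with 95% intervals, for KO against C247S KI, KO against WT and C247S KI against WT. Filled points, at an edgeR adjusted p below 0.05, are Arntl (-1.61), Clock (-0.51), Cry1 (-1.02) and Nr1d1 (1.19), all in KO against C247S KI.

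Set beside the known order of peaks, the 3 genes that fell in KO against C247S KI peak from late night to early day, and the 1 that rose peaks by day. The members that peak after Nr1d1 did not pass. In that comparison Nr1d2 and Per1 had log2 differences of 0.026 and 0.048, Per3 one of 0.34 and Per2 one of -0.28, with intervals that hold differences of either sign. Cry2, which swings little, was at 0.079. In KO against WT, Per3 was at 0.66, Per1 at 0.31, Per2 at 0.11 and Nr1d2 at -0.15. None of these passed with edgeR (adjusted p = 0.0916 for Per3), though DESeq2 called Per3. Outside the members, 4 of 7 factors of the accessory loop, listed below, rose in KO against C247S KI and 1 fell. The share called over all tested genes was 10.3%. With a single collection and no clock hour, a shift in phase, a change in the height of the rhythm and a change in mean level cannot be told apart.

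Ratios within a library, in which scaling cancels, set the opposite arms against each other. The log2 ratio of Nr1d1 to Arntl counts was 5.62 ± 0.77 in KO, 2.99 ± 0.87 in C247S KI and 3.998 ± 1.083 in WT (SD, n = 5 each). Its KO values of 4.55 to 6.48 lay above the C247S KI values of 1.6 to 3.86, and overlapped the WT values of 2.44 to 5.14. The log2 ratio of Per3 to Arntl was 3.63 to 4.57 in KO, 0.57 to 2.87 in C247S KI and 1.42 to 3.31 in WT, with no overlap between KO and either other group. For Cry1 over Cry2 it was -2.98 to -2.38 in KO, -2.59 to -0.77 in C247S KI and -2.48 to -1.68 in WT. The genes in these ratios were picked with their values known, so the ratios are descriptions without a test.

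**Figure D4:**
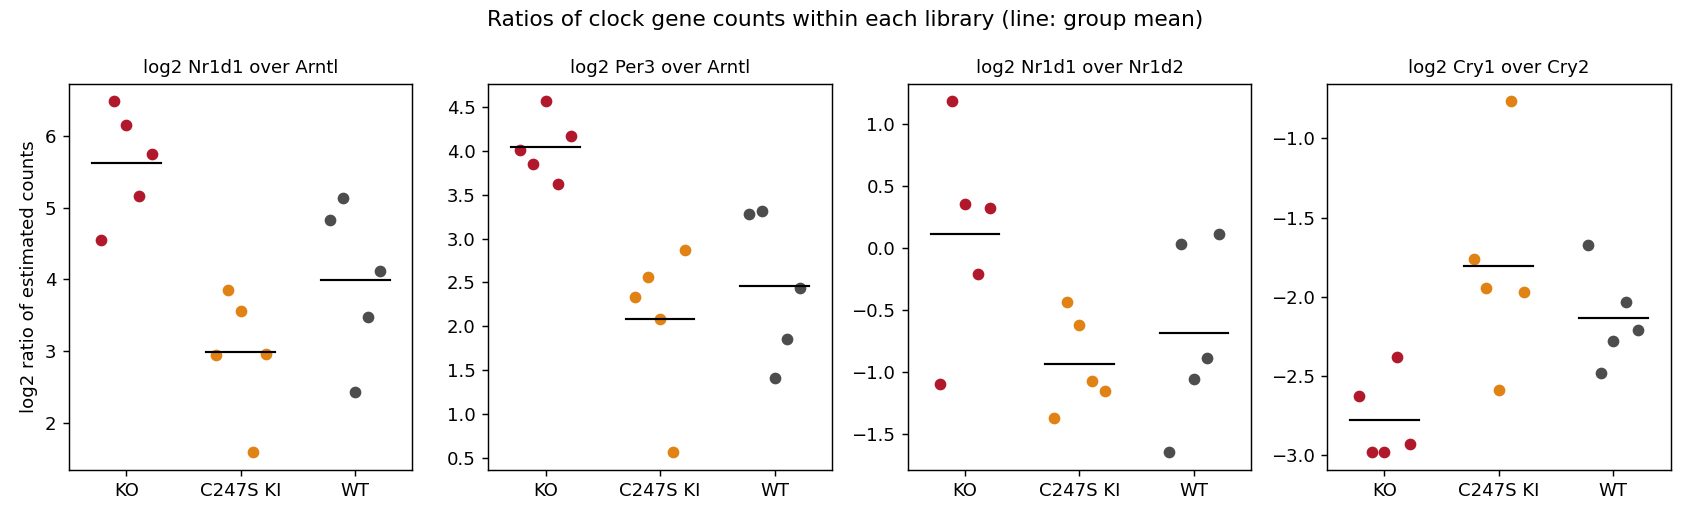
Log2 ratios of estimated counts within each library (vertical axes) for Nr1d1 over Arntl, Per3 over Arntl, Nr1d1 over Nr1d2 and Cry1 over Cry2 in KO, C247S KI and WT livers, with lines for group means. Per3 over Arntl is at least 3.63 in KO livers and at most 3.31 in the others.

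Libraries of the same group also differed along parts of the loop. After each library was centred on its group mean of log2 CPM, Arntl had a Pearson r of 0.55 with Cry1 and -0.81 with Nr1d2 over the 15 libraries (Spearman rho 0.55 and -0.62). With Nr1d1 its r was -0.32 and its rho -0.35, although Nr1d1 and Cry1 were at r -0.57 and rho -0.82. The Per genes went together, at r 0.75 for Per1 with Per3, 0.66 for Per2 with Per3 and 0.64 for Per1 with Per2. Leaving out WT 1, C247S KI 3 and C247S KI 5 together, a choice made after seeing the data, the r of Arntl was 0.83 with Cry1, -0.72 with Nr1d2 and -0.40 with Nr1d1. These values describe 15 libraries that share their group means and their scaling, and carry no test.

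**Figure D5:**
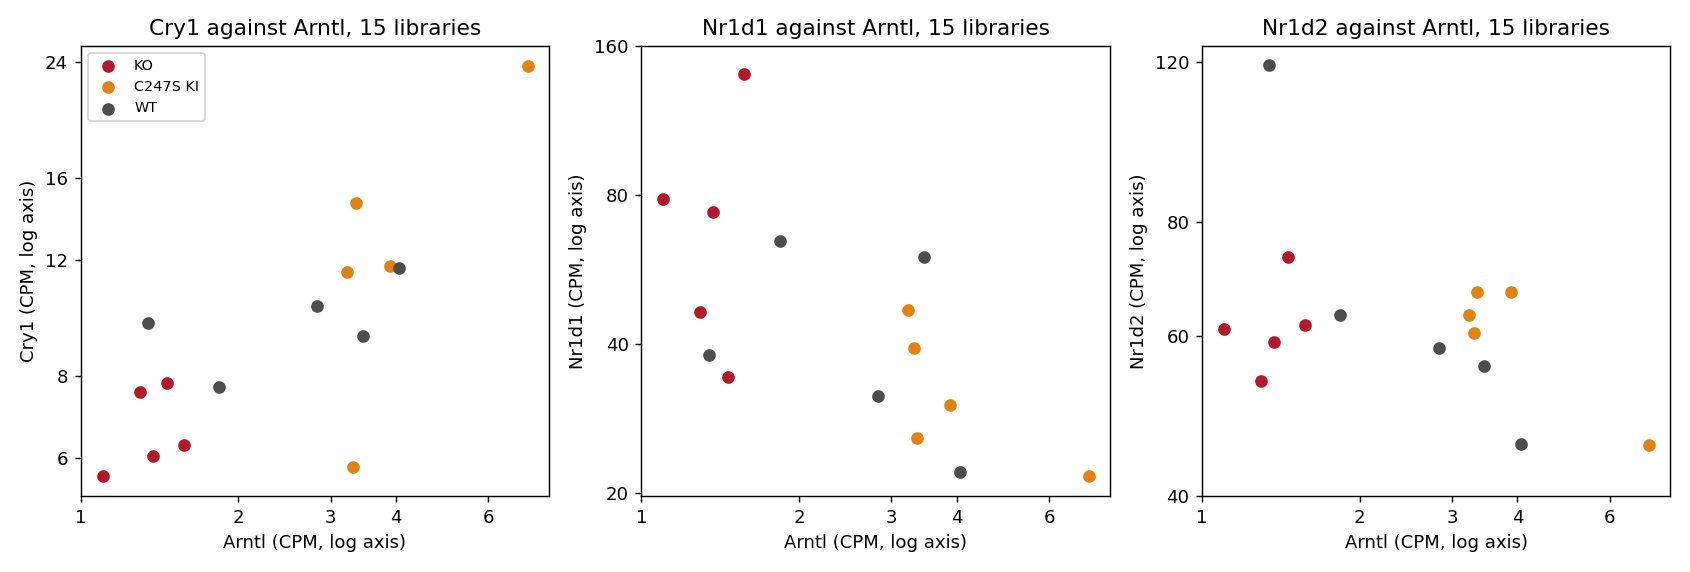
Cry1, Nr1d1 and Nr1d2 (vertical log axes, CPM) against Arntl (horizontal log axes, CPM) in 15 libraries coloured by group. KO libraries sit at 1.10 to 1.57 CPM of Arntl, with Nr1d1 between 34.3 and 140.1 CPM, and WT 1, at 1.35 CPM of Arntl, has the highest Nr1d2, 119.1 CPM.

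Outside the loop, the genes whose group-centred pattern was most like that of Arntl among 12286 with a mean of at least 1 CPM were Elmod3 (r 0.93), Cnbd2 (0.89), Ncdn (0.89), Gm46223 (0.88) and Slc16a1 (0.87). The most opposite were Erlin1 (-0.90), Fer (-0.87), Gsap (-0.86), Colec10 (-0.86) and Prkd3 (-0.86). Of these 10, Slc16a1, the lactate and ketone body transporter MCT1, fell by 0.63 in KO against C247S KI (SE 0.15, edgeR adjusted p = 0.0134) and Prkd3, a protein kinase D, rose by 0.74 (SE 0.20, adjusted p = 0.0251). Gm46223, a predicted gene, rose by 0.75 (SE 0.20, adjusted p = 0.0265). A ranking of so many genes over 15 libraries will hold high values, and Arntl itself had 24 to 127 counts a library.

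The genes next to the core were counted from 6 lists, chosen with earlier results of these data known. Over all tested genes, edgeR called 10.3% in KO against C247S KI, 6.75% in KO against WT and 0.0862% in C247S KI against WT. No list was tested as a set against these shares. Among PAR bZIP factors and repressors of the accessory loop, 4 of 7 rose and 1 fell in KO against C247S KI, and 2 rose in KO against WT. Dbp, an albumin promoter binding factor driven by E-boxes, averaged 182 ± 51.0 CPM in KO, 60.5 ± 20.6 in C247S KI and 85.2 ± 20.2 in WT (SD, n = 5 each). It rose by 1.59 against C247S KI (SE 0.24, edgeR adjusted p = 0.000854) and by 1.09 against WT (SE 0.24, adjusted p = 0.0123), with no overlap either time. Ciart, a repressor of the BMAL1 pair, rose by 0.67 in both comparisons (SE 0.17, adjusted p = 0.0178 against C247S KI and 0.0245 against WT). Tef, a PAR bZIP factor, had 213 ± 3.02 CPM in KO, 163 ± 14.6 in C247S KI and 172 ± 16.1 in WT, and rose by 0.39 against C247S KI (adjusted p = 0.0182), with 0.31 against WT (adjusted p = 0.0611). Nfil3, which opposes PAR bZIP factors at the D-box, fell to 26.4 CPM in KO, against 48.3 CPM in C247S KI (adjusted p = 0.0216), and Bhlhe41 rose to 6.07 CPM in KO, against 2.51 CPM in C247S KI (adjusted p = 0.0160). The last pair were named after their values were seen.

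The ROR receptors, which compete with REV-ERB at ROR elements, gave 0 calls among 5 tested genes of their list in each comparison. At an unadjusted p below 0.05, with DESeq2 and with limma-voom the count was also 0. Arntl2 and Tipin were at 0.22 and -0.17 in KO against WT, with adjusted p of 0.790 and 0.610.

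Among 19 kinases, ubiquitin ligases and proteases of PER and CRY turnover, 1 rose and 1 fell in KO against C247S KI, and 1 fell in KO against WT. Csnk1a1 and Fbxw11 did not pass in KO against WT, at -0.33 and -0.30 with edgeR adjusted p of 0.0536 and 0.0561. Usp2, a ubiquitin protease, rose by 0.50 and Gsk3b, a kinase of several clock proteins, fell by 0.45 in KO against C247S KI (adjusted p = 0.0255 and 0.0297, both named after their values were seen). Of 15 coactivators and corepressors, 1 rose in KO against C247S KI, the methyltransferase subunit Wdr5 (0.35, SE 0.093, adjusted p = 0.0249). Sfpq was at 0.35 in KO against WT, with an adjusted p of 0.127. In C247S KI against WT, 0 genes of the 6 lists passed with edgeR and limma-voom, 0 to 3 a list at an unadjusted p below 0.05, and 1 with DESeq2.

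Some markers of other liver cell types were called in the same comparisons. Over all tested genes the share called was 10.3% in KO against C247S KI and 6.75% in KO against WT. In KO against C247S KI, 2 of 5 tested cholangiocyte markers fell, and the list of 6 summed to 25.6 to 38.1 CPM in KO, 46.6 to 121.4 in C247S KI and 35.0 to 53.4 in WT. Of 8 sinusoidal endothelial markers 1, Lyve1, fell in KO against C247S KI, where 5 had a positive log2 difference, and 2, Lyve1 (to 37.6% of WT) and Pecam1 (to 57.3%), fell in KO against WT, both without overlap. The list had sums of 139.7 to 230.1 CPM in KO, 133.5 to 172.8 in C247S KI and 122.5 to 283.8 in WT. Of 10 Kupffer cell and macrophage markers 0 passed in any comparison with edgeR, DESeq2 or limma-voom. At an unadjusted p below 0.05 there were 2 in KO against WT, 7 in C247S KI against WT and 1 in KO against C247S KI. The shares over all tested genes were 23.3%, 9.85% and 27%. All 10 log2 differences were negative in KO against WT (median -0.25) and in C247S KI against WT (median -0.77). In KO against C247S KI all 10 were positive (median 0.49). The list summed to 117.2 to 416.5 CPM in KO, 90.1 to 224.9 in C247S KI and 185.2 to 460.9 in WT. Both tested adipocyte markers, Fabp4 and Cidec, fell in KO against C247S KI and against WT, with list sums of 12.3 to 18.5 CPM in KO, 32.4 to 146.8 in C247S KI and 34.2 to 177.5 in WT. Adipoq, Plin1 and Lep of that list did not pass the filter on low counts, so adipocyte content cannot be read from it. Of 8 stellate cell and fibroblast markers 1, Col3a1, fell in KO against WT, with sums of 145.2 to 392.1 CPM in KO, 304 to 475 in C247S KI and 410.6 to 485.6 in WT. Of 3 tested T, NK and B cell markers 1, Ms4a1, fell in KO against WT, with sums over the list of 2.24 to 3.99 CPM in KO, 3.18 to 4.91 in C247S KI and 2.83 to 9.68 in WT. Neutrophil markers (5 tested, 0 called by edgeR, DESeq2 or limma-voom, and 0 at an unadjusted p below 0.05) summed to 18.4 to 187.2 CPM in KO, 114.7 to 197.6 in C247S KI and 62.7 to 224.6 in WT. Erythroid markers (5 tested, 0 called) summed to 1235 to 3765 CPM in KO, 711.3 to 3267 in C247S KI and 555.5 to 1951 in WT, with 1 at an unadjusted p below 0.05 in KO against WT and 0 with DESeq2. No marker of these lists was at 0 in all libraries, and the part of cell makeup in the clock gene differences was not tested.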

How the data were processed

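Liver RNA of 15 libraries was analysed in 3 groups taken from the sample titles, with the replicate numbers given there. The table deposited by the authors gives whole-number estimated counts for each transcript, with kallisto 0.50.1, Trimmomatic 0.39, DESeq2 and mm10 named in the submitters' processing notes. No label names the transcript set. Of 115911 transcripts, 114331 (98.64%) matched GENCODE M21 (GRCm38) by identifier without version, and the rest held 0.366% to 0.459% of a library's counts and stayed out. Counts were summed per gene symbol. No rounding was needed.

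A filter on low counts (filterByExpr over the groups, minimum count 10, total 15) left 13916 genes. All 15 libraries entered 1 edgeR 4.0.16 quasi-likelihood fit in R 4.3.3 with TMM factors and group means, with Benjamini-Hochberg adjustment over all genes and a threshold of 0.05. The SE was the log2 fold change over the root of the F statistic. log2 CPM used a prior count of 2. The procedure was checked on simulated counts. No pair of same-group libraries was a repeat deposit (30 pairs, chi-square over its degrees of freedom 23 to 372.1). Each sample title carries its own number, but the labels do not say that it names an animal. Whether each library is a separate animal is thus not stated, and the spread behind the p-values may be technical.

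Alternatives were DESeq2 1.42.0, limma 3.58.1 with voom, factors by RLE or upper quartile, no filter, a mean count of at least 50, fits of 2 groups alone, a block for replicate number, protein-coding transcripts only, and leaving out each library. Total counts without TMM, and the omission of 3 libraries together (WT 1, C247S KI 3, C247S KI 5), were added after seeing the data. TPM used annotated lengths. Named genes were all members, Txnip, the 3 genes of each of 6 lists with the lowest p in KO against WT, and the 5 most and 5 least like Arntl. A few of the listed genes are not reported here. The members and lists were chosen with earlier results of these data known. Sequences are from RefSeq.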

Additional observations from a re-analysis of the deposited data

Results flagged for a closer look

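In 27 sets of 5 libraries (9 genes in 3 groups), a single library stood far from its group in log2 CPM for 2 genes. Chance gives about 1 in 20 sets, so this count is near the chance rate. Both flags fell on the same library, C247S KI 4, and are not independent. Arntl was 7.14 CPM in C247S KI 4, the highest of its group, with the other 4 at 3.23 to 3.89 CPM. Nr1d2 was 45.5 CPM in C247S KI 4, the lowest of its group, with the others at 60.4 to 67.1 CPM. The same library had the highest Cry1 (23.7 CPM) and Clock (31.6 CPM) of all 15 and the lowest Nr1d1 (21.6 CPM). Without it, the log2 changes in KO against C247S KI were -1.33 for Arntl (edgeR adjusted p = 0.00677), -0.71 for Cry1 (0.0451), -0.41 for Clock (0.0507) and 1.08 for Nr1d1 (0.0851).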

How the results depend on the processing

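In KO against C247S KI, Arntl and Cry1 kept their direction and their call in all 26 alternatives. Clock kept its call in 22 and Nr1d1 in 17, with direction unchanged in all 26. The number of members called in that comparison was 4, was 2 to 4 without 1 library, and was 2 with total counts. In KO against WT it was 0, against 2 with DESeq2 (Arntl, Per3), 2 with only the 2 groups compared (Per3, Cry1), 1 with a mean count of at least 50 (Arntl), 1 without WT 1, C247S KI 3 and C247S KI 5 (Arntl), and 0 to 1 without 1 library. With the replicate number as a block it was 1 (Per3). Same-numbered libraries of different groups had correlations of -0.141 to 0.381, 4 of 15 pairs were above 0.1, and 5 of 15 libraries matched their own number best. No chance level was set beside these values, so whether same-numbered samples share more than a number was not tested. The block moved the count of all genes called in KO against WT to 1046, against 939, and in C247S KI against WT to 6, against 12. In C247S KI against WT, 0 members were called in every alternative.

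Changes of sign were seen only for members that passed no test. Cry2 in C247S KI against WT was -0.00037 with DESeq2, -0.00047 with RLE, -0.0042 with upper-quartile factors, -0.0013 with no filter, -0.0064 with total counts, -0.034 without the 3 libraries, and -0.092 to 0.12 without 1 library. Cry2 in KO against WT was -0.013 and Nr1d2 was 0.15 (KO against WT) and 0.081 (C247S KI against WT) without the 3 libraries. Without 1 library, Cry2 in KO against WT was -0.0074 to 0.21, Nr1d2 -0.25 to 0.16 (KO against WT), -0.28 to 0.13 (C247S KI against WT) and -0.05 to 0.087 (KO against C247S KI), and Per1 -0.038 to 0.13 (KO against C247S KI). Nr1d2 in KO against C247S KI was -0.0038 with total counts. Genes called numbered 514 to 1542 in KO against WT (main 939), 4 to 65 in C247S KI against WT (main 12) and 784 to 2272 in KO against C247S KI (main 1427). Depth limits Npas2, which had at most 15 counts, and Arntl in KO. The causes of these changes were not tested.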

Other observations

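Genes of liver physiology outside the loop were set beside it from the 2 lists not described above. Over all tested genes the share called was 6.75% in KO against WT and 10.3% in KO against C247S KI. Of 16 hepatic output genes with E-box, D-box or ROR elements, 1 fell in KO against WT and in KO against C247S KI. It was Cdkn1a, the cell cycle inhibitor p21, a known target of REV-ERB alpha, which averaged 12.4 ± 3.52 CPM in KO, 88.9 ± 38.3 in C247S KI and 84.2 ± 36.7 in WT (SD, n = 5 each). The KO libraries, at 6.20 to 14.8 CPM, lay below all others. Cyp7a1, the rate-limiting enzyme of bile acid synthesis, and Alas1, of heme synthesis, had log2 differences of 1.29 and 0.72 in KO against WT and did not pass (edgeR adjusted p = 0.0764 and 0.0922).

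Of 16 temperature and glucocorticoid responsive genes, 3 fell and 1 rose in KO against WT, and 3 fell in KO against C247S KI. The metallothionein Mt1 averaged 207 ± 109 CPM in KO, 1243 ± 669 in C247S KI and 843 ± 337 in WT (SD, n = 5 each), and fell by 2.59 against C247S KI (edgeR adjusted p = 0.00127) and by 2.03 against WT (0.00855). Mt2 fell by 2.89 against C247S KI and by 2.36 against WT. Sgk1, a glucocorticoid-induced kinase, fell by 0.66 against C247S KI (adjusted p = 0.0393) and by 0.68 against WT (0.0460). Dnajb1, a heat shock protein, rose by 0.35 in KO against WT (adjusted p = 0.0460, named after its values were seen). Per1, which glucocorticoids also induce, was not called in any comparison with edgeR. In KO against C247S KI, 8 of the 16 listed genes had a positive log2 difference, with a median of -0.0054. A part of glucocorticoids or temperature in these differences was not tested.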
